A study of Mus musculus with 16 samples.

Results

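The genes described here are 8 enzymes of the mevalonate and cholesterol synthesis pathway, Hmgcs1, Mvk, Mvd, Idi1, Idi2, Fdps, Fdft1 and Sqle. They were chosen by name, and the list was drawn up because H3K36me3 at Idi1 was lower in the induced pluripotent stem cell (iPSC) lines from tail tip fibroblasts (TTF) than in those from proximal tubule cells (PTC). The question was whether the rest of the pathway shared that difference. All 8 genes were found among the 43984 rows of the histone table and among the 55471 rows of the methylation table. The H3K36me3 values of Idi1 chose the list, so they are given as a description without a test.

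The lines came from mouse littermates carrying 4 transgenic elements. These were SLC34a1-GCE, which puts a tamoxifen-dependent Cre recombinase under the Slc34a1 promoter of proximal tubule cells, a tdTomato reporter, rtTAROSA (neo-in) and the doxycycline (DOX) inducible reprogramming cassette OKMS-250. PTC were sorted as tdTomato and GFP positive cells, whereas TTF, which do not use the Slc34a1 promoter, received Cre from an episomal plasmid. DOX started reprogramming in both origins and was then withdrawn, so each line was a DOX-independent clone. PTC11 and PTC12 were compared with TTF1 and TTF4, 2 lines per origin with 1 library per line for H3K4me3, H3K36me3 and CpG methylation. Of the 16 libraries, 4 were for H3K27me3, and the labels give both PTC libraries of this mark to line PTC11. In bulk chromatin, fewer cells carrying a mark and less of the mark per cell cannot be told apart.

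The mevalonate pathway turns acetyl-CoA into isoprenoid units, from which squalene, cholesterol, dolichol, ubiquinone and the lipid anchors of prenylated proteins are made. Its genes are classic targets of the sterol-sensing transcription factor SREBP-2, which binds sterol regulatory elements near their start sites, often beside CCAAT and GC boxes, and they are switched on together when sterols run low. H3K4me3 is found at the start of genes in use, H3K36me3 accumulates over the body of genes that are being transcribed, H3K27me3 marks repressed genes, and CpG methylation is usually low at the CpG-rich start sites of genes in use.

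The promoter sequences of 5 of the 8 genes were read from the RefSeq promoter table on build GRCm38.p6, each 250 bases before to 50 bases after the start. They are shown because 4 of them, Idi1 included, hold CCAAT and GC boxes, which many other promoters hold too, and that of Idi2 holds none. The sterol regulatory core itself was found in that of Hmgcs1 alone. Capitals mark the sterol regulatory core CACCCCAC (GTGGGGTG on the other strand) and the CCAAT box (ATTGG on the other strand), and each sequence is given 5′ to 3′ on the strand of the gene.
Hmgcs1, chr13:119690101-119690400, plus strand: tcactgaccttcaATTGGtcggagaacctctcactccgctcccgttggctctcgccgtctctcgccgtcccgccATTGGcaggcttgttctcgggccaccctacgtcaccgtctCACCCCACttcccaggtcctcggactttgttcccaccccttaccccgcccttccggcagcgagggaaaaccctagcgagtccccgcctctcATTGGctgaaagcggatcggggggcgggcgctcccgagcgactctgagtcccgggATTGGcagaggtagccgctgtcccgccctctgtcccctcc
Mvk, chr5:114444019-114444318, plus strand: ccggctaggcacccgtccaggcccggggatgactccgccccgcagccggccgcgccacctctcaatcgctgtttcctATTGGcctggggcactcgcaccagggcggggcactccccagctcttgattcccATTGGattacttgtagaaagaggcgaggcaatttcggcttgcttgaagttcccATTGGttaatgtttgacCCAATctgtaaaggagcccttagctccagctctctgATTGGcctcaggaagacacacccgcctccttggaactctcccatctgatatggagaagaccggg
Mvd, chr8:122443373-122443672, minus strand: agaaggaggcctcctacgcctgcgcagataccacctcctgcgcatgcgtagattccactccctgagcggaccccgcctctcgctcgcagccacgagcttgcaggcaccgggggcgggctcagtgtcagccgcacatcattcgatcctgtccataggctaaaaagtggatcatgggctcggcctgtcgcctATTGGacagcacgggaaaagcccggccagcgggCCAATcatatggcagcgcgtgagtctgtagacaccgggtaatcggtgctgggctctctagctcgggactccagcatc
Idi1, chr13:8885356-8885655, plus strand: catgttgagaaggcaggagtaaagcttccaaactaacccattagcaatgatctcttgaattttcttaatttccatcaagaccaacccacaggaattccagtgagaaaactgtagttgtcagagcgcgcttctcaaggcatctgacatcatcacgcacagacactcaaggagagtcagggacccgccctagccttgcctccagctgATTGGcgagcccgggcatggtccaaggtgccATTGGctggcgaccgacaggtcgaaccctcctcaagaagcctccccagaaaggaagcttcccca
Idi2, chr13:8952613-8952912, plus strand: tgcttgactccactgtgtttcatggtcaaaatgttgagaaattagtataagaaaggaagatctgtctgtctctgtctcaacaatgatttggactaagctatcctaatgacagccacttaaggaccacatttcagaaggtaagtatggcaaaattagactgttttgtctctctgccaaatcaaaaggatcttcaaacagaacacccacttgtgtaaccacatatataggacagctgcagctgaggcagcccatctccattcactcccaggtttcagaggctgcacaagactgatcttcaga

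The sterol regulatory core was found in the Hmgcs1 promoter, 1 copy, and in 2.87% of the 32851 promoters of the table. CCAAT boxes numbered 4 in Hmgcs1, 5 in Mvk, 2 in Mvd and 2 in Idi1, and 37.4% of all promoters held at least 1 while 3.37% held 3 or more. A GC box (GGGCGG or CCGCCC) was present 3 times in Hmgcs1, 2 times in Mvk and once each in Mvd and Idi1, against a share of 35.7% of all promoters with any. The promoter of Idi2 held none of the 3 motifs and no CpG, whereas the other 4 held 26 CpGs (Hmgcs1), 23 (Mvd), 15 (Mvk) and 9 (Idi1), with a median of 7 over the table. These counts describe letters in a window of 300 bases and are not evidence of binding. Fdps, Fdft1 and Sqle had no match.

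H3K36me3 over gene bodies differed between libraries in a way that crossed the cell of origin, which bears on every value below. The median over genes with a value was 1.60 RPKM (reads scaled to peak length and library size, less input) for PTC11 and 1.18 for TTF1, and the other lines had 3.88 (PTC12) and 4.01 (TTF4). Genes without a called peak in a library had no value there. Values in all 4 lines were available for 17039 genes, including 6 of the 8 members. The lines were checked against marker lists by the presence of H3K4me3. In PTC11, PTC12, TTF1 and TTF4 respectively, H3K4me3 had a value at 9, 9, 9 and 7 of 10 pluripotency markers, at 1, 2, 2 and 2 of 10 proximal tubule markers, and at 2, 8, 8 and 5 of 10 fibroblast markers. The summed H3K4me3 of the fibroblast list was 5.88 and 29.1 RPKM in PTC11 and PTC12 and 30.8 and 17.3 in TTF1 and TTF4, and Slc34a1 had no H3K4me3 value in any line. H3K36me3 did not tell the lists apart, with values at 10, 9, 10 and 6 pluripotency markers, 10, 8, 10 and 6 proximal tubule markers and 10, 10, 10 and 8 fibroblast markers in the same order. Its median over the proximal tubule list in PTC11 was 1.53 RPKM, above the level of Idi1 in that line. The part of these differences between libraries in the results below was not tested.

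Idi1 encodes isopentenyl diphosphate isomerase, which converts isopentenyl diphosphate into dimethylallyl diphosphate. The gene occupies chr13:8885501-8892451 on the plus strand (mm10). Its H3K36me3 was 1.38 RPKM in PTC11 and 2.94 RPKM in PTC12, and it was listed at 0 in TTF1 and in TTF4. The origins did not overlap, and relative to the other genes of each line Idi1 stood at percentile 30.8 and 25.5 in PTC11 and PTC12, and 0.969 and 0.719 in TTF1 and TTF4. Idi1 was therefore a gene of below-median H3K36me3 in the PTC iPSC lines. Its TTF percentiles are the rank shared by all genes listed at 0, 454 in TTF1 and 292 in TTF4. Genes without a value in a line were not ranked there. On the log2(RPKM + 1) scale the mean was lower by 1.62 in the TTF iPSC lines, a value that depends on the pseudocount since the TTF values are 0.

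A listing at 0 in both TTF lines with values above 0 in both PTC lines was found at 14 of 17039 genes (0.0822%), and the opposite listing at 0 genes (0.0%). Idi1 had the highest PTC mean of the 14, 2.16 RPKM, and BC107364 followed with 0.600 RPKM. H3K4me3 had a value in all 4 lines at 5 of the 14. At Idi1 it lay between 4.67 and 8.49 RPKM, and at the other 4 (BC107364, Gm13275, AL928605.3 and Gm3512) it did not exceed 0.293 RPKM in any line. Of 9951 genes with H3K36me3 in all lines and at least 1 RPKM of H3K4me3 in each, 17 were listed at 0 for H3K36me3 in any line, 15 in TTF1, 3 in TTF4 and 0 in PTC11 or PTC12. Idi1 was the 1 gene of these that was listed at 0 in both TTF lines. The threshold of 1 RPKM leaves out the rest of the 14. Since Idi1 was chosen for its low H3K36me3 in the TTF lines, its place among the 14 and among the 9951 is a description and not support. The genes listed at 0 in 1 TTF line included Rpl29, a ribosomal protein gene, at 0 in TTF4, and Ndufa6, a subunit of respiratory complex I, at 0 in TTF1, both named after their values were seen. Whether a 0 is a measured absence of the mark cannot be told from the values, so it is given here only as a listing.

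**Figure D1:**
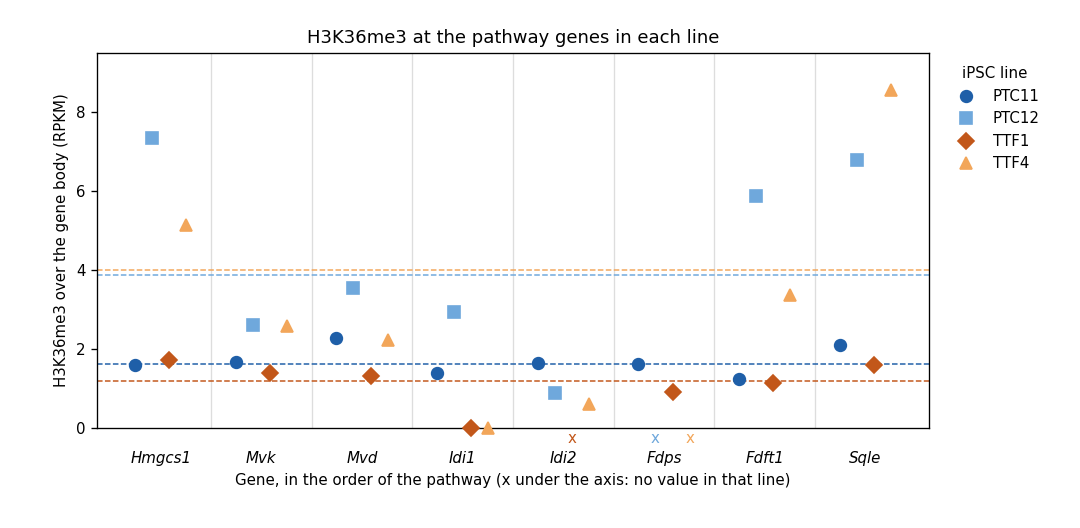
H3K36me3 in RPKM (vertical axis) at the 8 genes in pathway order, with 1 point per iPSC line and a dashed line at each line's median over all genes with a value. Idi1 is listed at 0 in TTF1 and TTF4 and at 1.38 and 2.94 RPKM in PTC11 and PTC12. At Hmgcs1, Mvk, Fdft1 and Sqle the points split into PTC12 with TTF4 above PTC11 with TTF1.

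None of the other members was listed at 0 in any line, and at 4 of the 5 with values in all lines the origins overlapped. Hmgcs1, at chr13:119690462-119708086, encodes the cytosolic synthase that makes HMG-CoA. It carried 1.59 and 7.33 RPKM in PTC11 and PTC12, against 1.72 and 5.13 in TTF1 and TTF4. The TTF values lay between the PTC values, and the difference on the log2 scale was -0.19 (limma, 95% interval -2.59 to 2.22, adjusted p = 1). Mvk, the mevalonate kinase gene at chr5:114444269-114460591, had 1.67 and 2.61 RPKM in PTC11 and PTC12 and 1.40 and 2.58 in TTF1 and TTF4. The 2 origins overlapped at Mvk, with a difference of -0.08 (interval -1.77 to 1.60, limma adjusted p = 1).

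Mvd, at chr8:122433596-122443422 on the minus strand, encodes the decarboxylase that yields isopentenyl diphosphate, the substrate of Idi1. It had 2.28 RPKM of H3K36me3 in PTC11 and 3.54 in PTC12, a mean of 2.91 ± 0.894 (SD, n = 2), and 1.32 in TTF1 and 2.23 in TTF4, a mean of 1.78 ± 0.646. Both TTF values lay below both PTC values, with TTF4 only just below PTC11. The difference of -0.49 on the log2 scale had an interval of -2.34 to 1.36 and did not pass the test (limma adjusted p = 1). Ranked within each line, Mvd stood at percentile 90.1 and 40.7 in PTC11 and PTC12, and 64.7 and 11.3 in TTF1 and TTF4, and in these ranks the origins overlapped. The lists ranked held 20381 (TTF4) to 29905 (PTC11) genes, so percentiles of different lines are not on the same scale.

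At Fdft1 and Sqle, genes of later steps, PTC12 and TTF4 lay above PTC11 and TTF1, so the lines split across the origins. Hmgcs1 and Mvk, of earlier steps, split in the same way, as did the medians over all genes. Fdft1, squalene synthase, at chr14:63145153-63177793 on the minus strand, had 1.23 and 5.86 RPKM in PTC11 and PTC12, against 1.14 and 3.36 in TTF1 and TTF4. Sqle, squalene epoxidase, at chr15:59315077-59331192, had 2.11 and 6.79 RPKM in PTC11 and PTC12 and 1.60 and 8.57 in TTF1 and TTF4. Sqle held percentile 84.4 to 98.4 in the 4 lines, and its highest rank and the lowest were both in TTF lines. The differences were -0.36 at Fdft1 (interval -2.33 to 1.61) and 0.02 at Sqle (interval -2.64 to 2.68), each with a limma adjusted p of 1.

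Fdps and Idi2 lacked a value in at least 1 line, so they did not enter the main test. Fdps, farnesyl diphosphate synthase, at chr3:89093592-89101967 on the minus strand, had 1.63 RPKM in PTC11, 0.895 in TTF1 and no value in PTC12 or TTF4. Idi2, the paralog of Idi1 at chr13:8952863-8960935, had 1.64 RPKM in PTC11, 0.878 in PTC12, 0.603 in TTF4 and no value in TTF1. In the alternative with values in at least 3 lines, its log2 difference was -0.47, with TTF4 as the only TTF line. Within the lines, Idi2 was at percentile 53.7 in PTC11 and at 4.30 and 2.88 in PTC12 and TTF4, so it was a low gene in the lines with high medians.

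**Figure D2:**
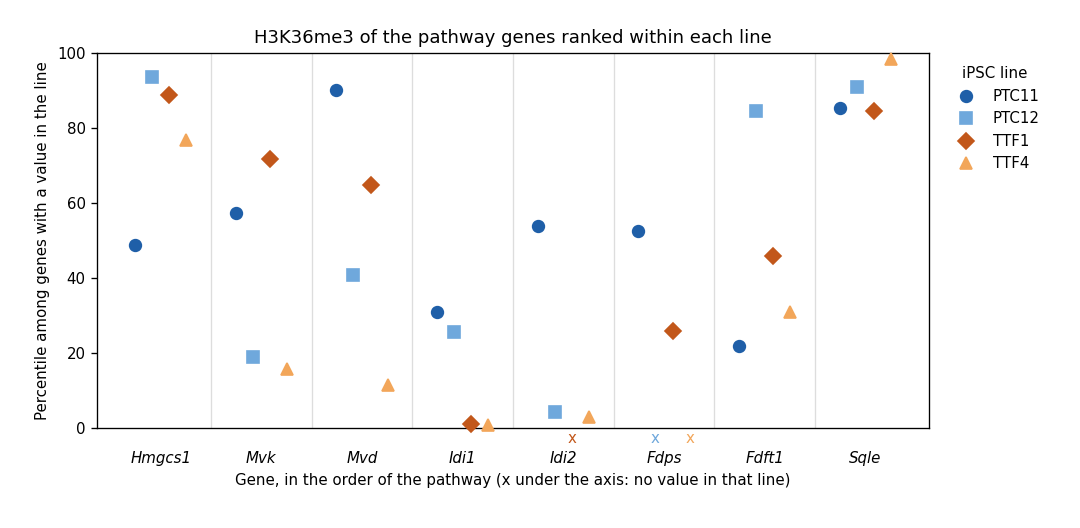
Percentile of H3K36me3 at each gene among all genes with a value in the same iPSC line (vertical axis, 0 to 100), with 1 point per line. The ranks are within lists of 20381 to 29905 genes, and Idi1, whose values chose the list, has TTF points at 0.969 and 0.719 and PTC points at 30.8 and 25.5.

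Among the 6 members with values in all lines, both TTF values lay below both PTC values at 2, Idi1 and Mvd, and above them at 0. Over all 17039 genes the shares were 3.05% below and 0.452% above, and Idi1 is the gene that the list was built on. By percentile within the line 1 of the 6, Idi1, was below in both TTF lines, against 16.3% of all genes, and 0 stood above in both, against 12.7%. None of the other 5 passed the test at an adjusted p under 0.05, and of all genes 0.112% did. The difference was below 0 at 5 of the 6 members, against 74.4% of all genes, and at 3 of the 6 after quantile normalization. The members' median difference was -0.27, or -0.19 without Idi1, beside -0.14 over all genes. The members' median rose to 0.29 without PTC12 and to 0.18 without TTF1. It was -0.88 without PTC11 and -0.82 without TTF4, so the choice of lines set its direction. The median over all genes moved with it, to 0.33, 0.46, -0.60 and -0.73 in the same order of lines left out. With 2 lines against 2 the smallest two-sided p of an exact permutation test is 0.3333, so no value of a single gene could pass 0.05 in that test. The limma intervals for H3K36me3 at the 5 tested members spanned changes of more than 1 log2 unit in both directions, so the missed threshold does not show that the origins were alike.

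Wdr37 and AC124732.1, the neighbours of Idi1 with values in all lines, did not have its low TTF values. Wdr37, which starts 13.6 kb upstream of Idi1 on the other strand, had 1.62 and 2.93 RPKM in PTC11 and PTC12, and 1.42 and 3.26 in TTF1 and TTF4. On the other side, AC124732.1 had 2.37, 1.90, 1.71 and 2.23 RPKM in the same order of lines. Gtpbp4, a nucleolar GTP-binding protein gene beyond Idi2, had no value in TTF4, 1.33 RPKM in TTF1, and 1.72 and 3.56 RPKM in PTC11 and PTC12. Idi2 itself had 0.603 RPKM in TTF4 and no value in TTF1, against 1.64 and 0.878 in PTC11 and PTC12. At Wdr37, AC124732.1 and Gtpbp4 a TTF line carried at least 1.33 RPKM, and at Wdr37 and AC124732.1 the origins overlapped. Between them lay Rpl10a-ps2 (1.83 RPKM in PTC11 and 1.56 in TTF1, no value elsewhere), Gm9745 (0.307 in PTC11, 1.24 in PTC12 and 0.981 in TTF4) and XLOC_016456, which was listed at 0 in PTC11 and had no value in the other lines.

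**Figure D3:**
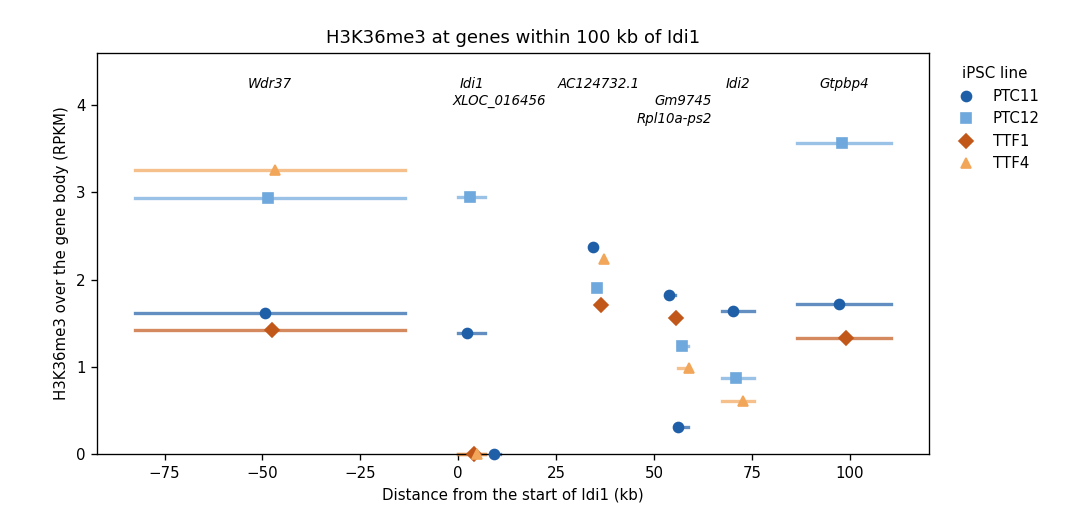
H3K36me3 in RPKM (vertical axis) of the genes within 100 kb of Idi1 against the distance from the Idi1 start in kb (horizontal axis). Bars span each gene, with 1 marker per iPSC line, and TTF1 and TTF4 are at 0 over Idi1 while they stand at 1.42 and 3.26 RPKM over Wdr37.

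Part of Idi1 and most of Idi2 have copies elsewhere in the genome, so their read densities are uncertain. Of the 30-base words of Idi1, 65.8% occur once in the genome, and of those of Idi2 22.1%, whereas the share was 89.1% to 97.4% at the other 6 members. The copies of Idi1 are Gm13502 on chromosome 2, at chr2:53694365-53696836, which holds 33.5% of its words, Gm35570 on chromosome 5 with 13.4% and Gm8911 on chromosome 10 with 2.92%. Gm13502 had no H3K36me3 value in any line, and Gm35570 and Gm8911 had no entry under these names among the genes with H3K36me3 data. The copy of Idi2 is a stretch of 13.6 kb upstream of it, at chr13:8937614-8951205, which holds 75.7% of its words and contains Rpl10a-ps2 and Gm9745. Idi1 and Idi2 share 3 words with each other. How the alignment divided reads between the copies was not tested.

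The H3K36me3 profiles most like Idi1, over the 4 lines and among 16520 genes whose mean reached 1 RPKM, belonged to Gm13148, Gm13158, Gm15287, Spc24 and Ier2. Likeness was the Euclidean distance between log2(RPKM + 1) values after the mean of each gene was removed. It was 0.205 for Gm13148, 0.418 for Gm13158, 0.442 for Gm15287, 0.479 for Spc24 and 0.536 for Ier2, with a median of 1.76 over all ranked genes. Gm13148 had 1.70 and 3.31 RPKM in PTC11 and PTC12, against 0.105 and 0.305 in TTF1 and TTF4, and Spc24, a kinetochore subunit, had 2.37, 7.56, 0.884 and 1.07 RPKM. Ier2, an immediate early gene, had 3.47, 7.55, 1.30 and 2.12 RPKM. No member of the pathway was among the 5.

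At the start sites, H3K4me3 was present in all 4 lines at 7 of the 8 genes and did not separate the origins at any of them. Idi1 had 4.67 and 7.72 RPKM in PTC11 and PTC12 and 8.49 and 5.50 in TTF1 and TTF4. It ranked at percentile 92.2, 96.5, 96.7 and 97.7 of these lines, the strongest rank of the list in TTF4 and TTF1. The mean was 6.19 ± 2.16 RPKM (SD, n = 2) in PTC and 6.99 ± 2.11 in TTF iPSC lines, and the log2 difference of 0.16 (interval -1.05 to 1.37) did not pass the test (limma adjusted p = 1). The TTF lines in which Idi1 was listed at 0 for H3K36me3 thus carried H3K4me3 at its start within the range of the PTC lines or above it. The neighbour Wdr37 had 4.14, 6.63, 7.72 and 3.96 RPKM of H3K4me3 in the same order of lines, and Gtpbp4 had 3.48, 6.21, 4.96 and 4.42 RPKM.

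Hmgcs1 had the highest H3K4me3 value of the list, 9.73 RPKM in PTC12, and 3.94 in PTC11, 6.60 in TTF1 and 4.62 in TTF4. Mvk had 5.41 RPKM in both PTC lines, 7.64 in TTF1 and 4.07 in TTF4. Mvd varied little in 3 of the lines, with 5.80 RPKM in PTC11, 5.44 in PTC12 and 5.88 in TTF1, and was at 3.62 in TTF4. At Mvk and Mvd the TTF lines were thus both the highest and the lowest.

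Fdps had 4.89 and 6.18 RPKM in PTC11 and PTC12, and 7.07 and 4.15 in TTF1 and TTF4. Fdft1 was the lowest of the 7 in PTC11, with 2.29 RPKM, and had 4.70 in PTC12, 5.00 in TTF1 and 3.81 in TTF4. Sqle had 3.48 and 5.44 RPKM in PTC11 and PTC12, against 7.36 and 4.55 in TTF1 and TTF4. TTF1 was highest at each of these 3 genes. Idi2 had no H3K4me3 value in any line.

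Across the 7 genes the difference ran from -0.23 (Mvd) to 0.34 (Sqle) on the log2 scale, and all 7 adjusted p values were 1. Over all 13709 genes tested, 0.481% passed at an adjusted p under 0.05. Both TTF values lay above both PTC values at 0 of the 7 members (5.04% of all genes) and below them at 0 (3.17%). The difference was below 0 at 3 of the 7, against 38.7% of all genes, and the members' median difference was 0.05, beside 0.04 over all genes. Leaving out TTF1 moved the members' median to -0.34 and leaving out TTF4 to 0.43, and it was 0.40 without PTC12 and -0.15 without PTC11. Over all genes the median was -0.21, 0.31, 0.26 and -0.17 in the same order of lines left out. The sign at single members changed with the line left out at 6 of the 7, Sqle being the exception.

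**Figure D4:**
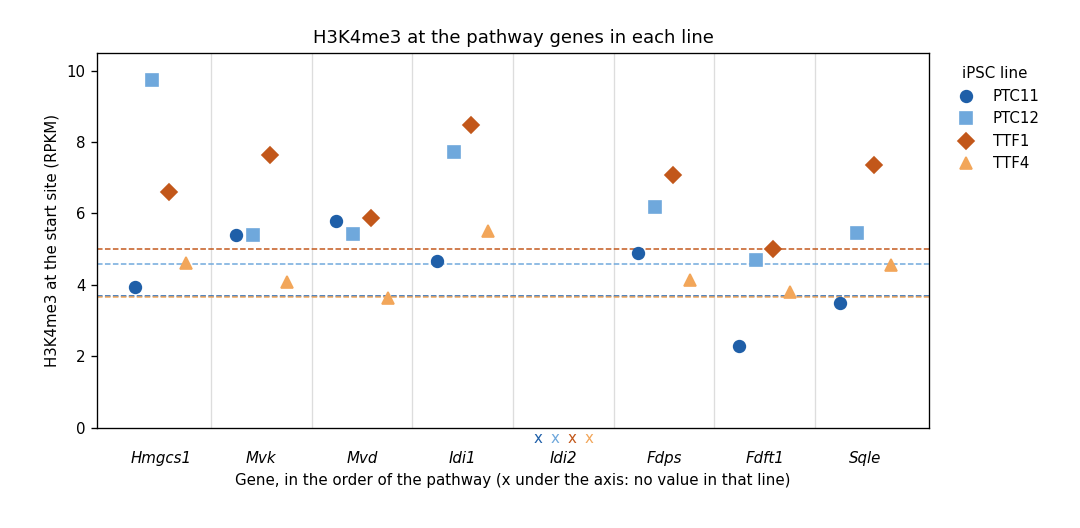
H3K4me3 in RPKM (vertical axis) at the start sites of the 8 genes, with 1 point per iPSC line and a dashed line at each line's median over genes with a value. TTF and PTC points overlap at all 7 genes with values, Idi1 lies above the dashed line of every iPSC line, and Idi2 has no value.

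H3K27me3 had no value at any of the 8 genes in any of the 4 libraries. These libraries were sparse, with values at 69 and 144 genes in the PTC11 libraries, 52 in TTF1 and 11 in TTF4. The missing values therefore do not show whether the 8 genes carried the mark, at any level.

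CpG methylation around the start sites placed the genes in 2 classes. At Hmgcs1, Mvk, Mvd, Idi1, Fdps and Sqle the deposited fraction of methylated CpGs was at most 0.305 in every line, against line means over all genes of 0.372 and 0.482 in PTC11 and PTC12 and 0.379 and 0.649 in TTF1 and TTF4. At Idi2 and Fdft1 it was 0.633 to 0.875 in every line but TTF1. The coverage behind the fractions is unknown, so no interval from counting is given. TTF4 was the most methylated line genome-wide, and comparisons were therefore made after the mean of each line was subtracted, as in the study.

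Idi1 had a fraction of 0.073 and 0.173 in PTC11 and PTC12, and 0.066 and 0.249 in TTF1 and TTF4. Its start site was thus lowly methylated in both TTF lines, where H3K36me3 was listed at 0. TTF1 had the lowest fraction of the 4 lines and TTF4 the highest. The centred difference was -0.05 (interval -0.31 to 0.20, limma adjusted p = 1.00). Gm48574, whose start lies 0.3 kb from that of Idi1 on the other strand, had 0.051, 0.073, 0.018 and 0.252 in the same order of lines. The starts of Wdr37 (0.226, 0.235, 0.007 and 0.291) and Gtpbp4 (0.006, 0.016, 0.019 and 0.089) were lowly methylated as well, with the highest fraction of each in TTF4.

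Mvd was the 1 member with higher fractions in both TTF lines, with 0.013 and 0.048 in PTC11 and PTC12, against 0.083 and 0.305 in TTF1 and TTF4. The mean was 0.0306 ± 0.0252 in PTC and 0.194 ± 0.157 in TTF iPSC lines (SD, n = 2). Centred, the difference of 0.08 had an interval of -0.18 to 0.33 and did not pass the test (limma adjusted p = 1.00). Hmgcs1 had the opposite order as deposited, with 0.093 and 0.036 in PTC11 and PTC12 and 0.031 and 0.011 in TTF1 and TTF4, and its origins overlapped once the fractions were centred.

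Mvk had 0.064 and 0.122 in PTC11 and PTC12, and 0 and 0.262 in TTF1 and TTF4. Fdps had 0.146, 0.072, 0.091 and 0.293 in the same order of lines. Sqle was the least methylated in TTF1, at 0.003, with 0.028 in PTC11, 0.044 in PTC12 and 0.078 in TTF4. Sqle also had the most CpGs within 1000 bp of its start, 124, against 65 to 85 at the other 5 genes of the lowly methylated class. At Mvk, Fdps and Sqle the highest fraction was in TTF4.

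Idi2 had 0.633 and 0.785 in PTC11 and PTC12, against 0.150 and 0.875 in TTF1 and TTF4, with 13 CpGs within 1000 bp of its start. Fdft1 had 0.664 and 0.875 in PTC11 and PTC12 and 0.167 and 0.822 in TTF1 and TTF4. For Fdft1 the methylation table uses a start 1785 bp upstream of the start in the histone table, with 12 CpGs within 1000 bp, whereas 89 lie around the latter. The methylation and the H3K4me3 of Fdft1 are thus centred on different starts, although the windows around them overlap in part. TTF1 stood apart as the low line at both genes. The centred difference at Fdft1 was -0.36 (interval -0.68 to -0.04), with an unadjusted p of 0.0264 and an adjusted p of 0.963 by limma, and at Idi2 it was -0.28 (interval -0.61 to 0.04, adjusted p = 1.00). Without TTF1 these became -0.17 at Fdft1 and -0.06 at Idi2.

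**Figure D5:**
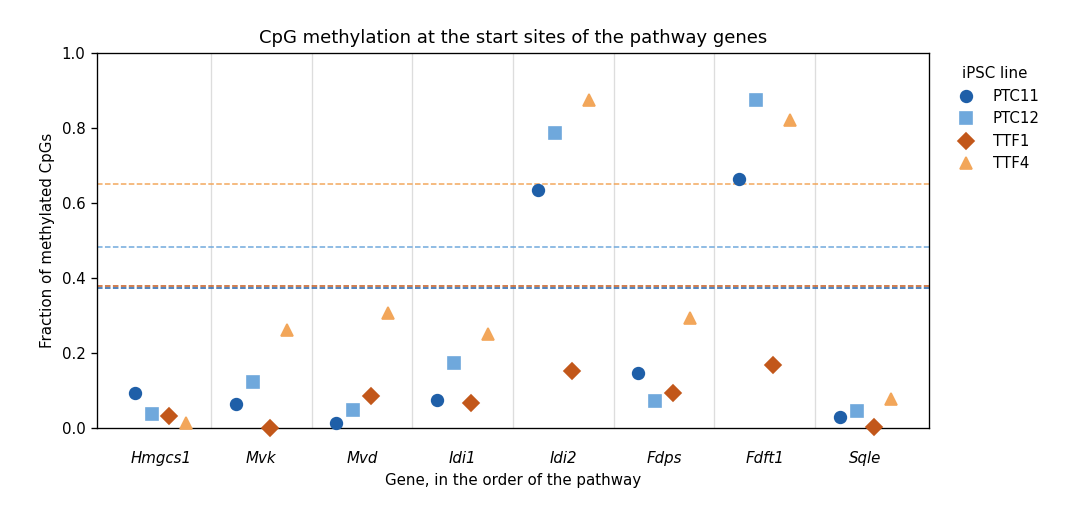
Fraction of methylated CpGs around the start sites of the 8 genes (vertical axis, as deposited), with 1 point per iPSC line and a dashed line at each line's mean over all genes. The 6 lowly methylated genes stay at or below 0.305 in every line, and at Idi2 and Fdft1 TTF1, at 0.150 and 0.167, lies far below the other 3 lines.

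Of the 50657 genes with methylation values in all lines, 0.00395% passed the test, and 0 of the 8 members did (1 member, Fdft1, had an unadjusted p under 0.05). Centred values lay below both PTC values in both TTF lines at 4 members, Mvk, Idi1, Idi2 and Fdft1, against 12.8% of all genes, and above them at 1, Mvd, against 15.0%. As deposited, the counts were 1 below (Hmgcs1, 3.36% of all genes) and 1 above (Mvd, 20.5%). The centred difference was below 0 at 7 of 8 members, against 53.0% of all genes, but at 3 of 8 without centring and at 4 of 8 without TTF4. The members' median difference was -0.07, beside -0.01 over all genes. Without centring it was 0.02, beside 0.08 over all genes. Centring subtracts the most from TTF4, and at Hmgcs1, Mvk, Idi1 and Sqle the lowest centred value was in that line. By this subtraction alone, a start site with fractions near 0 in all lines gets a difference below 0. Srebf2, outside the list, had 0.005, 0.001, 0.005 and 0.023 in PTC11, PTC12, TTF1 and TTF4 and a centred difference of -0.08. The shares over all genes are therefore not a like background for the lowly methylated members.

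The remaining genes of the pathway gave no call in any assay. In a list of 16 other mevalonate and sterol synthesis genes, 7 had H3K36me3 in all lines, and at 0 of these did the origins separate. The median H3K36me3 difference of these 7 genes was -0.26, of 18 genes of sterol regulation, uptake and efflux -0.15, and of 8 genes of the prenyl, dolichol and ubiquinone branches -0.11. No gene of the latter lists separated the origins either.

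For H3K4me3, both TTF values lay above both PTC values at 5 of 15 other synthesis genes, 1 of 16 regulators and 0 of 10 branch genes, beside 5.04% of all genes. None of them passed the test. Ebp, a sterol isomerase, had 3.80 and 3.01 RPKM in PTC11 and PTC12, against 5.87 and 4.04 in TTF1 and TTF4, with a difference of 0.42 (interval -0.34 to 1.19, limma adjusted p = 1). Pmvk, phosphomevalonate kinase, had 3.99, 4.25, 6.65 and 4.48 RPKM, and Nr1h3, a sterol-sensing nuclear receptor, had 4.93, 5.84, 7.68 and 5.99 RPKM in the same order. At these genes 1 TTF line was far above the PTC lines and the other slightly above. Mbtps1, the protease that cuts SREBP in the Golgi, was the 1 gene with lower TTF values, 6.17 and 5.18 RPKM in PTC11 and PTC12 against 4.50 and 5.05 in TTF1 and TTF4.

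For CpG methylation, the centred origins separated downward at 2 of 16 and upward at 2 of 16 other synthesis genes, at 2 and 5 of 20 regulators and at 0 and 1 of 10 branch genes, beside 12.8% and 15.0% of all genes. Insig2, which retains SREBP in the endoplasmic reticulum, had fractions of 0.561 and 0.533 in PTC11 and PTC12 and 0.797 and 0.893 in TTF1 and TTF4, a centred difference of 0.21 (interval -0.08 to 0.51, limma adjusted p = 1.00). Dhcr7, which catalyses the last step to cholesterol, had 0.092, 0.110, 0.217 and 0.478 in the same order. Lower centred fractions were found at Sc5d, a sterol desaturase (0.149, 0.182, 0.074 and 0.060), Scap, the SREBP escort (0.238, 0.308, 0.161 and 0.192), and Mylip, an LDL receptor ubiquitin ligase (0.169, 0.307, 0.13 and 0.164). None of these 5 genes had an adjusted p under 0.05.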

How the data were processed

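The authors deposited the ChIP-seq data as RPKM for every gene in every library. Reads were aligned to mm10 with Bowtie2 2.1.0, peaks were called per library against input with MACS2 2.0.10, reads in peaks were counted with bedtools 2.17.0, the input RPKM was subtracted, and peaks were averaged around the TSS or, for H3K36me3, along the gene body. Where no peak was retained the gene is blank. Values of exactly 0 occur although the methods exclude them, and were kept. Mapped reads cannot be recovered from these RPKM. For methylation, the authors deposited a fraction between 0 and 1 per gene, from nanopore reads aligned with minimap2 2.17-r941 and averaged in windows of 300 bp, moved by 30 bp, within 1000 bp of the TSS. Coverage is unknown, so precision comes from the spread between lines.

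Genes measured in all 4 lines were tested with limma 3.58.1 in R 4.3.3 (lmFit, then eBayes with trend=TRUE) using log2(RPKM + 1) or the fraction minus the mean of its line, with Benjamini-Hochberg adjustment over all genes. Fold differences on this scale understate changes at low RPKM. Each line is 1 clone, and limma estimates the spread between clones from all genes of a like level, not from 1 gene alone. For the histone marks this shared estimate set the standard errors. Dhcr7, with 3.50 to 3.99 RPKM of H3K4me3 over the lines, had one of 0.36 log2 units. For methylation it weighed heavily as well. The centred TTF1 and TTF4 values were -0.379 and -0.387 at Mvk and -0.376 and -0.571 at Sqle, with standard errors of 0.127 and 0.126. The p values of the histone marks and of methylation therefore do not measure the spread between clones at a single gene. The step was tested on simulated data. H3K27me3 was not tested because both PTC libraries carry the label of 1 line. Sequences came from the GRCm38.p6 genome and the RefSeq promoter table, and words of 30 bases were counted over both strands with Python 3.11.15 and numba 0.67.0.

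The 8 genes, the pathway and marker lists and the alternatives were chosen with earlier results of these data known. Genes outside the list were named by rule: other pathway genes that passed the test or had the 3 largest differences per direction with separated origins, genes within 100 kb of Idi1, and the 5 genes most like it. BC107364, Gm13275, AL928605.3, Gm3512 and the copies of Idi1 and Idi2 were named after their values were seen. A gene that the rule names is not reported here.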

Additional observations from a re-analysis of the deposited data

How the results depend on the processing

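No paired analysis was possible because the PTC and TTF lines carry different numbers. No member other than Idi1 in H3K36me3, which was not tested, passed the test in any assay under any of the 12 alternatives for each histone mark or the 10 for methylation, and the smallest adjusted p (limma) was 0.871 for H3K36me3, 0.987 for H3K4me3 and 0.172 for methylation. The smallest value of each assay came without TTF4, where the TTF side is 1 line that is assumed to vary like the PTC lines. Mvd kept a lower H3K36me3 mean in TTF under all 12 alternatives. Leaving out genes listed at 0 was chosen after seeing the data.

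The number of genes called depended on the setting. For H3K36me3, 19 genes were called, and 44 with a pseudocount of 0.1, 11 on the RPKM scale, 29 with values in at least 3 lines, and 1 to 31 with a line left out. For H3K4me3, 66 were called, and 102, 31, 183 and 59 to 108 in the same order. With limma, 0 genes were called with a mean of at least 1 RPKM (4 for H3K36me3 and 14 for H3K4me3 at an unadjusted p under 0.05), after quantile normalization (502 and 317), with equal medians (358 and 298), without the variance trend (4 and 3) and without genes listed at 0 (11 and 24). For methylation, 2 genes were called, and 0 without centring (1006 at an unadjusted p under 0.05), 0 after quantile normalization (2438), 52 with the median of the line subtracted, 9 without chromosomes X and Y, 4 with values in at least 3 lines, 1 without the variance trend and 0 to 1020 with a line left out, the most without TTF1. The cause was not tested.

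The members' median methylation difference of -0.07 was 0.019 without centring and ran from -0.113 to 0.0026 with a line left out. For H3K4me3 it ran from -0.34 to 0.43 and for H3K36me3 from -0.88 to 0.29 with a line left out. For both histone marks the median over all genes had the same sign as the members' median whichever line was left out. Quantile normalization moved the median H3K36me3 difference of all genes from -0.14 to 0.01 and that of the members from -0.27 to 0.01. Coverage is unknown, and the spread between the lines of an origin, shared over genes of a like level, sets the width of the intervals.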
